A study of Mus musculus with 12 samples.

Results

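The genes described here are 10 mouse genes that place, keep or remove DNA methylation: Dnmt1, Uhrf1, Uhrf2, Hells, Dnmt3a, Dnmt3b, Tet1, Tet2, Tet3 and Tdg. They were taken by symbol from 12 RNA-seq libraries of splenic B lymphocytes, and all 10 were among the 24982 gene symbols listed. The libraries fell into 3 groups of 4, all from mice 6 weeks old: WT (C57BL/J6 mice, per the study's text), Eμ-Myc, and Eμ-Myc with a PRPS2 knockout (Eμ-Myc; PRPS2 KO, called the knockout group below). The Eμ-Myc transgene joins Myc to the enhancer of the immunoglobulin heavy chain, which drives it in cells of the B lineage, and PRPS2 makes phosphoribosyl pyrophosphate, the sugar phosphate from which nucleotides are built. Both transgenic groups carry Eμ-Myc, so the knockout group differs from Eμ-Myc by the loss of PRPS2. How PRPS2 was removed, in which cells, and whether any mouse carried a tumour are not stated in the labels. The study asked which genes Myc deregulates in B cells, and whether loss of PRPS2 alters that programme.

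Methylation of cytosine in CpG sites is copied and erased by separate enzymes. After replication the new strand is unmethylated; UHRF1 recognises such sites and brings in DNMT1, the maintenance methyltransferase, while HELLS, a chromatin remodeller, opens packed chromatin to them, and UHRF2 is a paralogue of UHRF1 that binds hydroxymethylcytosine. DNMT3A and DNMT3B methylate sites that carried no mark before. TET1, TET2 and TET3 oxidise methylcytosine in steps, and TDG, a DNA glycosylase, cuts out the last oxidised bases so that an unmethylated cytosine can be put back. TET2 and DNMT3A are known as genes often mutated in blood cancers, and DNMT1 and UHRF1 are known to be made mainly in dividing cells.

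The start regions of 4 of these genes are shown, chosen by the change of their RNA in each direction. Uhrf1, Hells and Dnmt1 had the largest increases in Eμ-Myc against WT, and Tet2 the largest decrease. Each sequence is the 250 bases before 1 annotated transcription start of the gene, from RefSeq (GRCm38.p6), on the gene's own strand and 5′ to 3′. Capitals mark a match, on either strand, to the E2F letters TTTCGCGC or TTTGGCGC. Uhrf1 lies on chromosome 17 (+ strand, 56303321 to 56323486), and the bases shown are chr17:56304063-56304312. Hells lies on chromosome 19 (+ strand, 38930915 to 38971051), and the bases shown are chr19:38930740-38930989. Dnmt1 lies on chromosome 9 (- strand, 20907209 to 20959888), and the bases shown are chr9:20952624-20952873. Tet2 lies on chromosome 3 (- strand, 133463679 to 133545139), and the bases shown are chr3:133544391-133544640. Gene spans are those of the GENCODE annotation, and the bases shown for Uhrf1, Dnmt1 and Tet2 lie inside them. Those bases are downstream of the start of a longer annotated transcript, so they can hold its exons or introns. Dnmt1 had 3 RefSeq starts and Uhrf1 had 2, of which 1 per gene was used. The bases for Hells begin before its span and end inside it, and no GENCODE start lay within 50 bases of the start used.
Uhrf1: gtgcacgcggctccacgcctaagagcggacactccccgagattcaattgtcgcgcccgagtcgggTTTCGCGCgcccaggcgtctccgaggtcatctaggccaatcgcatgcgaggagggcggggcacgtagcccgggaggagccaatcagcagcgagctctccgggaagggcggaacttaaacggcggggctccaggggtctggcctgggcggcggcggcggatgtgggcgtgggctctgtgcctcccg
Hells: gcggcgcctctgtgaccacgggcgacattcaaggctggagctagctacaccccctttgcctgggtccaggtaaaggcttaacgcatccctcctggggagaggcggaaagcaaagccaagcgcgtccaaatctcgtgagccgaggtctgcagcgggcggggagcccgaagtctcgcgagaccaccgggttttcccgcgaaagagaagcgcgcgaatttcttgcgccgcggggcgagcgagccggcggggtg
Dnmt1: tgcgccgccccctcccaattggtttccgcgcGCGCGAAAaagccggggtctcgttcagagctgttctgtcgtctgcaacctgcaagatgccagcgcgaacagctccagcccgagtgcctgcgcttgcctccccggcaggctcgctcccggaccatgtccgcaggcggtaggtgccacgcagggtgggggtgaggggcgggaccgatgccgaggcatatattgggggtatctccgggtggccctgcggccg
Tet2: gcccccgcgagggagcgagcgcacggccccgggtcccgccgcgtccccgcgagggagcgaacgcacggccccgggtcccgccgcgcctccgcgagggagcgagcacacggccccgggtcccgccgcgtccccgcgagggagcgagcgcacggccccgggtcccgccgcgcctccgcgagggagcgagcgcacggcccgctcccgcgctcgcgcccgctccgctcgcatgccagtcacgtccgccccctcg

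All 10 genes had a start region in the table. Motifs were searched on both strands in the 300 bases from 250 before to 50 after the start, and the shares of the 18203 mouse start regions of that length that hold them are given as background. The E2F letters TTTCGCGC or TTTGGCGC occur in 1.04% of start regions and were found in those of Dnmt1 and Uhrf1. In Uhrf1 the match was TTTCGCGC at -185 to -178. Positions are counted from 0 at the base of the start used, not from other starts of the gene. In Dnmt1 one match, GCGCGAAA, lay at -219 to -212 on the opposite strand and the other, TTTGGCGC, at 33 to 40, after the start. The E-box letters CACGTG, which Myc with Max can bind, occur in 8.13% of start regions and were found in Dnmt3a at -80 to -75 and Tdg at -28 to -23. None of these exact letters was found in the regions of Hells, Uhrf2, Dnmt3b, Tet1, Tet2 and Tet3. Other forms of an E2F site or an E-box were not searched, so their absence, in Hells or elsewhere, is not shown. The Tet2 region held 57 CpG sites, more than 99.8% of start regions, whose median was 13. The counts in the other 9 were 34 in Hells, 33 in both Dnmt1 and Uhrf1, 30 in Dnmt3b, 28 in Uhrf2, 26 in Tdg, 22 in Tet3, 18 in Dnmt3a and 17 in Tet1.

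Values are mean coverages per gene, already per length, and they were scaled between libraries. Levels of different genes are set side by side on that basis, though how coverage was computed is not given in the sources used here. How many reads lie behind a value is unknown. Fold changes are from limma on log2(scaled coverage + 0.5), with adjusted p over all genes of a comparison, and a gene was called below an adjusted p of 0.05. Coverage summed to between 1277305.5 and 1885768.9 per library. Prps2 had a scaled coverage of 98.3 to 140.0 in WT, 198 to 287 in Eμ-Myc and 16.2 to 18.3 among knockout libraries, so each library matched its PRPS2 label. Myc was at 226 to 346 in WT and 1556 to 2302 in Eμ-Myc, and in knockout libraries 1 to 4 it was 1099, 1718, 3017 and 3281. All 7 B cell markers were above 1 in each of the 12 libraries, with sums of 6371 to 12440 in WT, 7625 to 9333 in Eμ-Myc and, among knockout libraries, 7052 to 7610, and 1 of the 7 was called lower in each comparison with WT. In a bulk sample, fewer cells of a type and less RNA per cell cannot be told apart.

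Markers of other cells moved with the groups, and the knockout libraries split. The summed scaled coverage of 9 T cell markers was 658 to 3392 in WT and 151 to 212 in Eμ-Myc, where all 9 were called lower. In knockout libraries 1 to 4 that sum was 761, 842, 56.4 and 57.5. The 14 proliferation markers summed to 459 to 640 in WT, 2742 to 3565 in Eμ-Myc and 1569, 2197, 4604 and 4610 in knockout libraries 1 to 4. Knockout libraries 1 and 2 were thus the lower for proliferation and the higher for T cell markers, and libraries 3 and 4 the reverse. The 8 myeloid markers, of which none was called in any comparison, summed to 7819 to 24518 in WT, 5644 to 16692 in Eμ-Myc and 15083, 11270, 2962 and 1238 in knockout libraries 1 to 4. The 6 NK cell markers were all called lower in Eμ-Myc and summed to 430, 318, 19.5 and 18.1 in knockout libraries 1 to 4. The 4 platelet markers were all called lower in the knockout group than in WT, and 3 of them had an unadjusted p under 0.05 against Eμ-Myc; they summed to 75.0 to 376 in WT, 68.8 to 140 in Eμ-Myc and 126, 31.9, 33.5 and 38.4 in knockout libraries 1 to 4. Of the 4 plasma cell markers 2 were called lower in Eμ-Myc than in WT, and the sums in knockout libraries 1 to 4 were 379, 458, 106 and 106. Of the 10 erythroid markers 1 was called higher in each comparison with WT. No marker was at 0 in all libraries of a group. The part of these cells and of proliferation in the results below was not tested.

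The maintenance genes rose together in Eμ-Myc B cells: all 4 were called higher than WT and in none did the groups overlap. Among the 12704 genes tested, 55.2% were called, 30.4% higher and 24.8% lower, and in 51.5% the groups did not overlap. The share of higher among the called genes was 55.1%, and 42.0% with total coverage as the scale. Of the 10 genes 9 were tested, 6 were called higher and 2 lower, Dnmt3a was not called, and Tet1 was below the filter. The median log2 fold change of the 9 was 1.07, beside -0.01 over all genes tested.

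Uhrf1, which finds freshly replicated sites for DNMT1, had a scaled coverage of 96.2, 75.9, 88.7 and 74.5 in WT libraries 1 to 4 and of 820, 662, 962 and 1018 in Eμ-Myc libraries 1 to 4. The lowest Eμ-Myc library lay far above the highest WT library. The means were 83.8 ± 10.4 and 865 ± 159 (SD, n = 4 each), and the log2 fold change was 3.35 (SE 0.15, limma adjusted p 1.56e-06), a 10.2-fold increase and the largest of the 9. Its level rose from above 73.1% of the genes tested in WT to above 97.8% in Eμ-Myc.

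Hells, the remodeller, was low in WT, at 15.4, 17.3, 19.95 and 15.5, and stood at 95.1, 67.4, 121 and 121 in Eμ-Myc. Eμ-Myc library 2 was the lowest of its group and still above each WT library. The log2 fold change was 2.50 (SE 0.19, limma adjusted p 9.45e-06), from a mean of 17.0 ± 2.13 to 101 ± 25.5 (SD, n = 4 each).

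Dnmt1, the copying enzyme, had the highest level of the 10 in WT, at 210, 215, 245 and 231, and reached 720, 541, 797 and 843 in Eμ-Myc. The means were 225 ± 16.1 and 725 ± 133 (SD, n = 4 each). The log2 fold change was 1.67 (SE 0.14, limma adjusted p 1.82e-05), or 3.18-fold. Uhrf2 rose less than Uhrf1: it was at 38.2, 34.8, 36.05 and 46.4 in WT and at 74.0, 65.3, 78.0 and 75.5 in Eμ-Myc. Its log2 fold change was 0.91 (SE 0.12, limma adjusted p 0.000181). The paralogues were compared directly by their ratio within each library, which needs no scaling between libraries. Uhrf1 over Uhrf2 was 2.52, 2.18, 2.46 and 1.60 in WT and 11.1, 10.1, 12.3 and 13.5 in Eμ-Myc, without overlap. The difference was 2.44 on the log2 scale (exact two-sided permutation p 0.0286, the smallest that 4 against 4 allows, and 0.0490 adjusted over the 12 ratio tests).

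**Figure D1:**
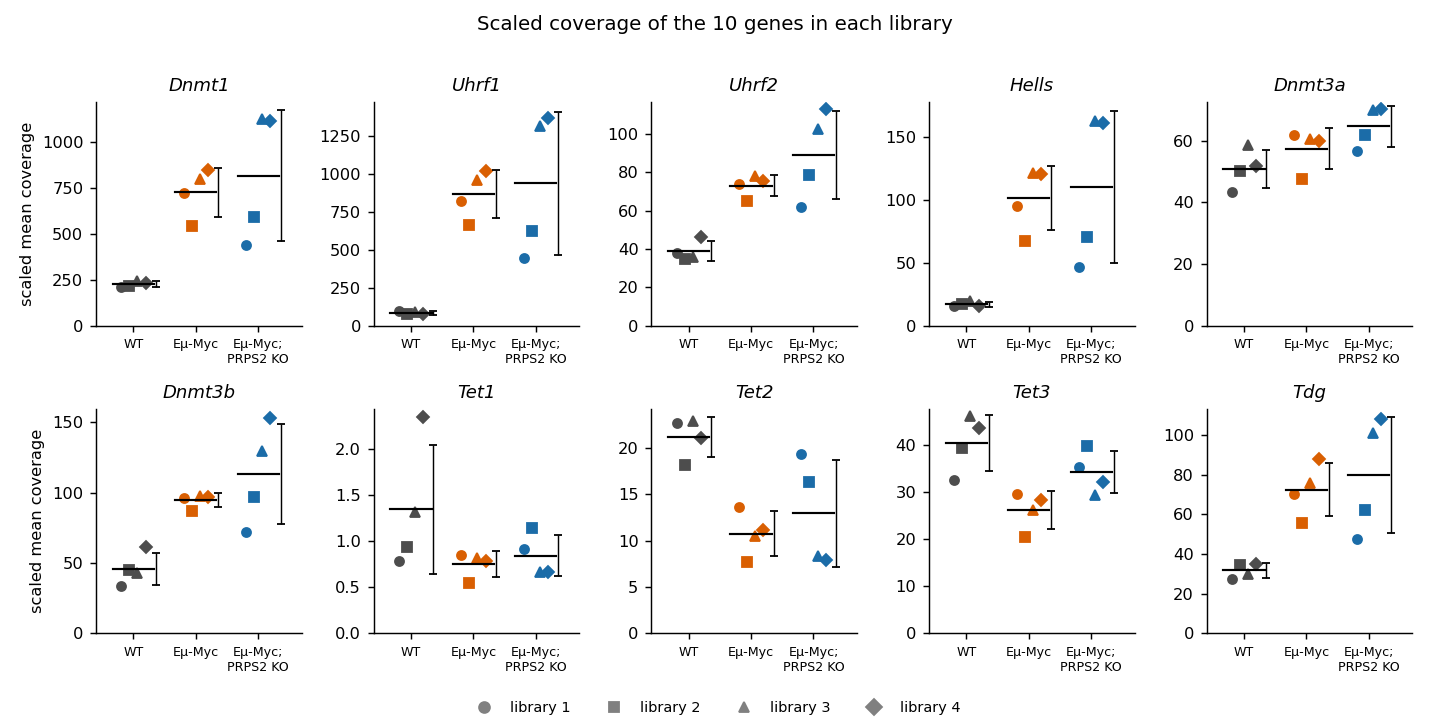
Scaled mean coverage (y axis, linear, from 0) of each of the 10 genes in WT, Eμ-Myc and Eμ-Myc; PRPS2 KO libraries (x axis), 1 point per library with its replicate number as the symbol, a line at the mean and a bar of ± 1 SD over 4 libraries. Uhrf1, Hells and Dnmt1 were far above WT in the Eμ-Myc libraries, Tet2 and Tet3 were below it, and in the knockout group libraries 1 and 2 lay apart from libraries 3 and 4.

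The de novo methyltransferases parted: Dnmt3b rose in Eμ-Myc and Dnmt3a was not called. Dnmt3b was at 33.7, 45.2, 43.2 and 61.4 in WT and at 96.5, 87.0, 97.7 and 96.98 in Eμ-Myc, with all Eμ-Myc libraries above all WT libraries. Its log2 fold change was 1.07 (SE 0.16, limma adjusted p 0.000516), from 45.9 ± 11.5 to 94.5 ± 5.03 (SD, n = 4 each). Dnmt3a was at 43.5, 50.1, 58.4 and 51.8 in WT and at 61.8, 47.5, 60.4 and 59.9 in Eμ-Myc, where library 2 fell within the WT range. Its log2 fold change was 0.17 (SE 0.13, 95% interval -0.11 to 0.46, limma adjusted p 0.274), and it was -0.0088 with total coverage as the scale, which lowers the median of all genes by 0.18. Genes annotated on the opposite strand that were listed had at most 0.1 at Dnmt3a and Tet3 and at most 0.3 at Tdg in deposited coverage.

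The ratio of Dnmt3a to Dnmt3b was 1.29, 1.11, 1.35 and 0.843 in WT and 0.641, 0.546, 0.618 and 0.618 in Eμ-Myc. Dnmt3a was thus the higher of these genes in 3 of 4 WT libraries and the lower in all 4 Eμ-Myc libraries. The log2 difference of the ratio was -0.90 (exact two-sided permutation p 0.0286, adjusted 0.0490), and p was 0.0571 when any 1 of the Eμ-Myc libraries 1, 2, 3 and 4 was left out. The groups stayed apart in those cases, where fewer arrangements remain and p moves in coarser steps. Dnmt1 over Dnmt3a went from 4.83, 4.29, 4.20 and 4.46 in WT to 11.6, 11.4, 13.2 and 14.1 in Eμ-Myc, a log2 difference of 1.5 (exact two-sided permutation p 0.0286, adjusted 0.0490). Of the summed coverage of the 3 methyltransferases, Dnmt1 held 70.04% ± 2.53 in WT and 82.5% ± 1.86 in Eμ-Myc, and Dnmt3a held 15.8% ± 0.859 and 6.60% ± 0.527 (SD, n = 4 each).

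Among the erasers, Tet2 and Tet3 fell in Eμ-Myc while Tdg rose. Tet2, which starts the oxidation of methylcytosine, was at 22.7, 18.2, 22.9 and 21.0 in WT and at 13.6, 7.72, 10.5 and 11.2 in Eμ-Myc. All Eμ-Myc libraries were below all WT libraries, and the log2 fold change was -0.97 (SE 0.18, limma adjusted p 0.00149), a level 1.96-fold lower. Tet3, another enzyme of this kind and the highest of the 3 in each group mean, was at 32.6, 39.4, 46.1 and 43.5 in WT and at 29.6, 20.4, 26.1 and 28.3 in Eμ-Myc. The groups did not overlap, though WT library 1 and Eμ-Myc library 1 were close, and the log2 fold change was -0.62 (SE 0.15, limma adjusted p 0.00727). T cell and NK cell markers fell in the same libraries, and their part in the values of Tet2 and Tet3 was not tested.

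Tet1 was near the floor of the files, at 0.788, 0.936, 1.32 and 2.35 in WT, 0.851, 0.545, 0.822 and 0.788 in Eμ-Myc, and 0.914, 1.14, 0.666 and 0.666 in knockout libraries 1 to 4. The groups overlapped, and it was not tested. The ratio of Tet3 to Tet2 was 1.44, 2.17, 2.02 and 2.07 in WT and 2.17, 2.65, 2.49 and 2.54 in Eμ-Myc. Its log2 difference was 0.37 (exact two-sided permutation p 0.0286, adjusted 0.0490), but p was 0.0571 with 0.5 added to both values or without WT library 1 or 3 or any 1 of the 4 Eμ-Myc libraries. The log2 difference was 0.24 without WT library 1. With 1 library left out the groups stayed apart, and p moves in coarser steps.

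Tdg, the glycosylase, was at 27.6, 34.4, 29.7 and 35.1 in WT and at 70.2, 55.5, 75.9 and 88.0 in Eμ-Myc, again without overlap. The log2 fold change was 1.17 (SE 0.15, limma adjusted p 0.000197), or 2.24-fold. The value of Tdg is uncertain because a transcribed pseudogene on chromosome 10, listed as Gm9855 (Tdg-ps2 in RefSeq), kept a ratio to Tdg of 0.392 to 0.400 in all 12 libraries. Its deposited coverage ran from 12.4 to 38.7, and how reads shared by the gene and its copy were assigned is not given in the sources used here.

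Loss of PRPS2 gave no call against Eμ-Myc among these genes. In limma 0 of the 9 tested were called, beside 0.00798% of the 12535 genes tested, which is Prps2 alone. At an unadjusted p under 0.05 there was 1 of the 9, Tet3, beside 0.957% of all genes, and in none of the 9 were the groups apart, beside 1.53% of all genes. The median log2 fold change of the 9 was 0.17, and that of all genes was -0.03.

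Tet3 was at 35.3, 39.8, 29.4 and 32.2 in knockout libraries 1 to 4, with library 3 inside the Eμ-Myc range and the other 3 above it. Each was above the Eμ-Myc library of the same number, at 29.6, 20.4, 26.1 and 28.3, though the labels state no pairing by number. The log2 fold change against Eμ-Myc was 0.39 (SE 0.16, 95% interval 0.03 to 0.75, limma p 0.0378, adjusted 1.00). For the other 8 the 95% intervals bound what could be seen. They were widest for Hells, at -0.03 (-1.01 to 0.95), Uhrf1, at -0.02 (-0.88 to 0.84), Dnmt1, at 0.07 (-0.68 to 0.83), and Tet2, at 0.18 (-0.57 to 0.94). They ran from -0.57 to 0.72 for Tdg, -0.31 to 0.72 for Dnmt3b, -0.20 to 0.69 for Uhrf2 and -0.13 to 0.47 for Dnmt3a. These intervals leave room for sizeable changes either way in Hells, Uhrf1 and Dnmt1, and equality with Eμ-Myc is not shown.

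**Figure D2:**
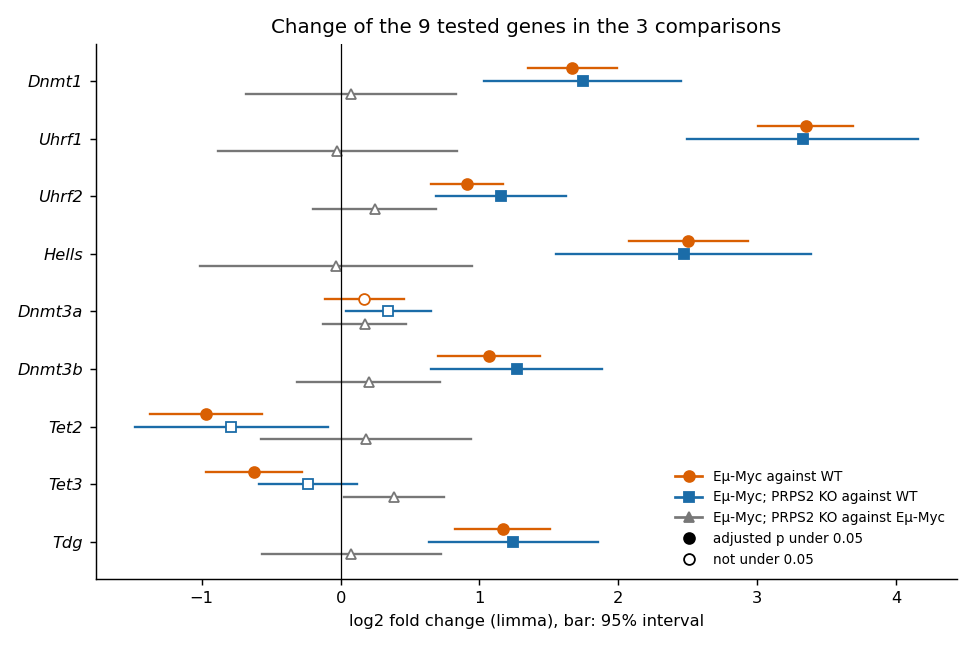
Log2 fold change by limma (x axis) of the 9 tested genes (y axis) in Eμ-Myc against WT (circles), the knockout group against WT (squares) and the knockout group against Eμ-Myc (triangles), with 95% intervals as bars and filled symbols below an adjusted p of 0.05. The symbols of the knockout group against Eμ-Myc are open for all 9 genes, with the widest intervals for Hells, Uhrf1, Dnmt1 and Tet2 and an interval above 0 for Tet3, and Uhrf1 lies farthest to the right in both comparisons with WT.

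The widest intervals came with a split inside the knockout group. Uhrf1 was at 447, 621, 1312 and 1368 in knockout libraries 1 to 4, so libraries 1 and 2 were below every Eμ-Myc library and libraries 3 and 4 above every one. Hells was at 46.4, 70.5, 162 and 161, a 3.49-fold span within 1 group. Dnmt1 was at 437, 590, 1122 and 1112, with library 2 inside the Eμ-Myc range. Uhrf2, the maintenance gene with the smallest increase in Eμ-Myc, followed the same order, at 61.9, 78.8, 103 and 113. So did Tdg, at 47.7, 62.2, 101 and 108, and Dnmt3b, at 72.3, 97.1, 130 and 153. Dnmt3a varied little, at 56.8, 61.8, 70.04 and 70.2.

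Tet2 ran the other way, at 19.4 and 16.3 in knockout libraries 1 and 2 and 8.33 and 7.88 in libraries 3 and 4. Library 1 was inside the WT range of Tet2, library 2 was below that range and above the Eμ-Myc range, and libraries 3 and 4 were inside the Eμ-Myc range. Over the 9 genes other than Tet1, knockout library 1 was below the Eμ-Myc range in 6 and above it in 2, library 2 below in 1 and above in 3, library 3 above in 7 and library 4 above in 8. The log2 SD was larger in the knockout group than in Eμ-Myc for 7 of these 9, all but Dnmt3a and Tet3. The same held for 75.6% of the 12535 genes tested, whose median log2 SD was 0.385 in the knockout group and 0.214 in Eμ-Myc. Myc itself moved in the same order, with log2 differences from the Eμ-Myc mean of -0.79 in knockout library 1 and 0.79 in library 4. The proliferation sums were likewise lower in knockout libraries 1 and 2 than in 3 and 4, and the T cell, NK cell, myeloid and plasma cell sums were higher. Their part in the split was not tested.

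**Figure D3:**
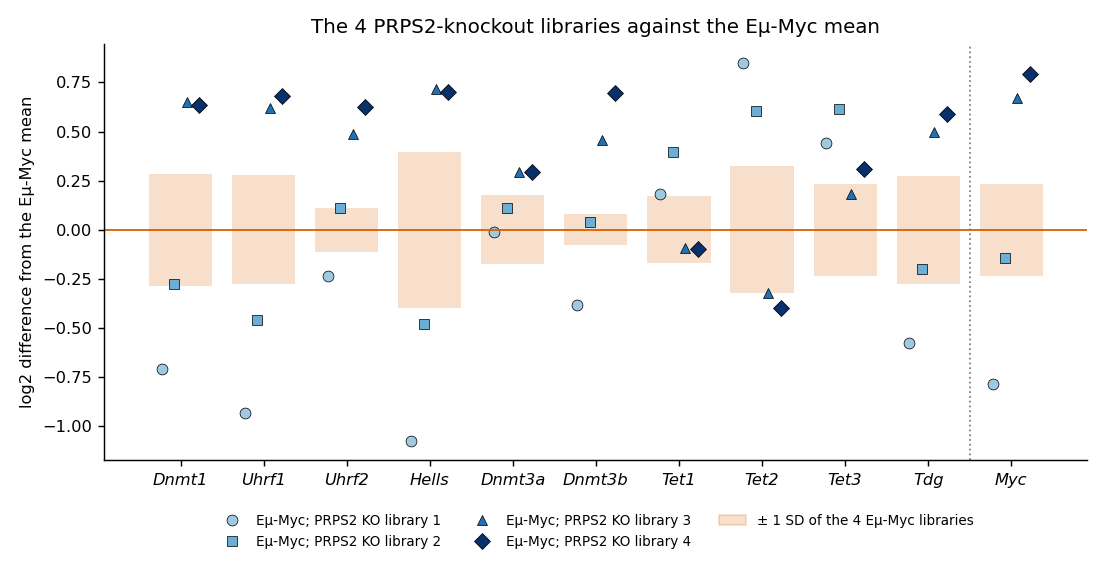
Log2 difference of each knockout library from the mean of the 4 Eμ-Myc libraries (y axis) for the 10 genes and Myc (x axis), with a band of ± 1 SD of the Eμ-Myc libraries. Knockout libraries 3 and 4 lie above the band for Dnmt1, Uhrf1, Uhrf2, Hells, Dnmt3b and Tdg, library 1 lies below it for the same genes, and for Tet2 libraries 1 and 2 are the high ones.

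Fits without libraries 1 and 2, or without 3 and 4, were chosen with this split already known from these data, so their counts restate it and are no test; they are given here and below as a description. Without libraries 1 and 2, 4 of the 9 genes passed the threshold on the higher side, beside 28.5% of all genes: Uhrf1 with a log2 fold change of 0.65, Dnmt1 with 0.64, Dnmt3b with 0.58 and Uhrf2 with 0.56. Without libraries 3 and 4 none passed it, beside 3.94% of all genes, and the log2 fold changes were -0.70 for Uhrf1, -0.78 for Hells and -0.49 for Dnmt1. With weights for library quality, 9 of 9 were called, 8 higher and Tet2 lower, beside 59.5% of all genes; that fit gave knockout libraries 1 to 4 weights of 0.0816, 0.129, 3.20 and 7.79. The ratios within libraries did not separate the groups either, with exact two-sided permutation p of 0.314 for Uhrf1 over Uhrf2, 0.714 for Dnmt1 over Dnmt3a, 0.914 for Dnmt3a over Dnmt3b and 0.486 for Tet3 over Tet2, and adjusted p of 0.419, 0.779, 0.914 and 0.583.

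Against WT, 6 of the 9 genes tested were called higher in the knockout group and 0 lower. This comparison and that of Eμ-Myc share the WT libraries. Of the 12692 genes tested 29.3% were called, 19.7% higher and 9.64% lower, and in 37.1% the groups did not overlap, as in 6 of the 9 genes here. The median log2 fold change of the 9 was 1.24, beside -0.02 over all genes. Uhrf1 was again first, with a log2 change of 3.33 (SE 0.36, limma adjusted p 0.00924), followed by Hells with 2.47 (SE 0.40, adjusted p 0.0107) and Dnmt1 with 1.74 (SE 0.31, adjusted p 0.0119). Uhrf2 rose by 1.16 (SE 0.20, adjusted p 0.0119). As a description of the same split, 8 of the 9 passed the threshold without knockout libraries 1 and 2, 7 higher and 1 lower, beside 69.7% of all genes, and 5 did without libraries 3 and 4, all higher, beside 11.3%.

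Dnmt3b and Tdg rose by 1.27 (SE 0.27, limma adjusted p 0.0196) and 1.24 (SE 0.27, limma adjusted p 0.0201), and in both the lowest knockout library, library 1, was above the highest WT library. Both calls were lost without WT library 1, 2 or 3 or knockout library 3 or 4, with limma adjusted p of 0.0521 to 0.0613 for Dnmt3b and 0.0524 to 0.0636 for Tdg. With any 1 library left out the log2 changes were 1.10 to 1.46 for Dnmt3b and 1.07 to 1.46 for Tdg. The shares of all genes called in fits with 1 library left out are not given here. Calls lost or gained in them are thus not read as particular to these genes. Dnmt3a had a log2 change of 0.34 (SE 0.13, 95% interval 0.04 to 0.65, adjusted p 0.0747) and Tet2 one of -0.79 (SE 0.30, 95% interval -1.48 to -0.09, adjusted p 0.0750), neither called. Without knockout library 1 both were called, with adjusted p of 0.0391 for Dnmt3a and 0.0188 for Tet2. Tet3 had a log2 change of -0.24 (SE 0.15, limma adjusted p 0.232), and its knockout libraries lay from below the WT range to inside it. Of the ratios, Uhrf1 over Uhrf2 differed from WT by 2.17, Dnmt1 over Dnmt3a by 1.40 and Dnmt3a over Dnmt3b by -0.93 on the log2 scale (exact two-sided permutation p 0.0286 each, adjusted 0.0490), and Tet3 over Tet2 by 0.58 (exact permutation p 0.143, adjusted 0.214). Leaving out WT library 2, 3 or 4 raised p to 0.0571 for Dnmt1 over Dnmt3a. Leaving out WT library 1, 2 or 3 or knockout library 2, 3 or 4 did so for Dnmt3a over Dnmt3b. The groups stayed apart in those cases, where p moves in coarser steps. Without knockout library 1 Tet3 over Tet2 differed by 0.79 (exact permutation p 0.0286).

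The order of levels within the set changed between WT and Eμ-Myc. In WT, Dnmt1 was first with a mean scaled coverage of 225, and its libraries lay above those of Uhrf1, which lay above those of Dnmt3a. Dnmt3a, Dnmt3b, Tet3, Uhrf2 and Tdg followed with means of 50.9, 45.9, 40.4, 38.9 and 31.7, each overlapping the next, and then Tet2 and Hells at 21.2 and 17.0, which overlapped, and Tet1 at 1.35. In Eμ-Myc, Uhrf1 and Dnmt1 overlapped at the top with means of 865 and 725. Hells moved from the ninth place to the third with 101, overlapping Dnmt3b at 94.5. Uhrf2, Tdg and Dnmt3a overlapped in turn at 73.2, 72.4 and 57.4, and Tet3, Tet2 and Tet1 stood apart below them at 26.1, 10.7 and 0.752. In the knockout group the means were 937 ± 472 for Uhrf1 and 815 ± 354 for Dnmt1 (SD, n = 4 each), which overlapped, and Dnmt3b, Hells, Uhrf2, Tdg and Dnmt3a overlapped in turn from 113 to 64.7. Tet3, at 34.2, and Tet2, at 13.0, again stood apart at the low end, above Tet1 at 0.847.

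The genes whose pattern over the 12 libraries was most like each of these were found by the root mean square of log2 differences after centring, among the 10672 genes whose scaled coverage averaged 5 or more. Nearest to Uhrf1 were Mcm10, a replication initiation factor (0.129), Clspn, a replication checkpoint mediator (0.148), and Nek2, a mitotic kinase. Nearest to Hells was Pole, the catalytic subunit of a replicative DNA polymerase (0.139), and nearest to Dnmt1 were Dis3, an exosome ribonuclease (0.0892), Cbx5, a heterochromatin protein (0.0973), and Gart, an enzyme of purine synthesis (0.0976). Dnmt3b was nearest to Slc7a6, an amino acid transporter, and Uhrf2 to Ubqln4 (0.0927). Dnmt3a was nearest to Ankrd17 (0.0552), Tet2 to Akap13 (0.0752) and Tet3 to Ankib1 (0.0782). The nearest to Tdg was its copy Gm9855 (0.0125). Likeness here is over these 12 libraries, which share the split described above.

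The wider pathway was read from 62 related genes in 4 roles, of which 61 were listed and 58 tested. In Eμ-Myc against WT 29 were called higher and 13 lower, with a median log2 fold change of 0.32 beside -0.01 over all genes, of which 30.4% were called higher and 24.8% lower; the counts by role below stand beside those shares. Partners of maintenance and silencing rose most: 14 of 18 tested were called higher and 1 lower, with a median of 1.19. Pclaf, a PCNA-binding factor of replication, averaged 32.1 ± 7.60 in WT libraries and 313 ± 33.6 in Eμ-Myc libraries (SD, n = 4 each), a log2 change of 3.29 (SE 0.16, limma adjusted p 1.74e-06). Cdca7, which works with HELLS in chromatin remodelling, went from 31.4 ± 2.80 to 242 ± 23.1 (SD, n = 4 each), a log2 change of 2.93 (SE 0.11, limma adjusted p 1.42e-06). Lig1, the ligase that joins newly made DNA fragments, rose by 2.66, and Suv39h2, a histone methyltransferase of silent chromatin, by 2.48. Zbtb24, a transcription factor that activates Cdca7, was the only called fall in this role, at -0.56 (limma adjusted p 0.00156).

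The genes listed here as readers of methylated DNA went mostly the other way in Eμ-Myc. Of 9 tested 5 were called lower and 1 higher, with a median of -0.50. Whether each gene's product binds methylated DNA was not tested. Zbtb4, a zinc finger protein that binds methylated CpG, fell most, from 55.6 ± 12.3 to 18.8 ± 4.57 (SD, n = 4 each), a log2 change of -1.54 (SE 0.21, limma adjusted p 0.000244). Mbd3, a subunit of the NuRD repressor complex with little preference for methylated DNA, was the called increase, at 1.08 (limma adjusted p 0.000216). Under total coverage scaling, 25 of the 58 related genes were called higher and 15 lower. Among all called genes the share of higher was 42.0% under that scaling, beside 55.1% under the main one.

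Of 16 tested genes of demethylation and base excision repair 6 were called higher and 5 lower, near the shares over all genes, with a median of -0.01. Neil3, a glycosylase of dividing cells, rose from 6.94 ± 3.70 to 48.9 ± 4.70 (SD, n = 4 each), a log2 change of 2.85 (SE 0.29, limma adjusted p 4.76e-05). Apex1, the endonuclease that cuts at abasic sites after TDG, rose by 2.00 (limma adjusted p 8.62e-06). Gadd45g, a stress response gene linked to demethylation, fell by 1.29 on the log2 scale (limma adjusted p 0.0191).

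Genes that make or clear the cofactors of these enzymes were called higher in 8 of 15 and lower in 2, with a median of 0.51. Slc19a1, the reduced folate carrier, rose by 2.44 (limma adjusted p 4.05e-06), and Ahcy, which clears S-adenosylhomocysteine, the product that inhibits methyltransferases, rose by 2.13 (limma adjusted p 3.06e-06). Mat2a, which makes the methyl donor S-adenosylmethionine, rose by 0.69 (limma adjusted p 0.00355). Ahcyl2 was among the falls, at -1.02 (limma adjusted p 0.000397). Idh1, which makes the ketoglutarate that TET enzymes use, was not called, at -0.57 (limma adjusted p 0.134).

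**Figure D4:**
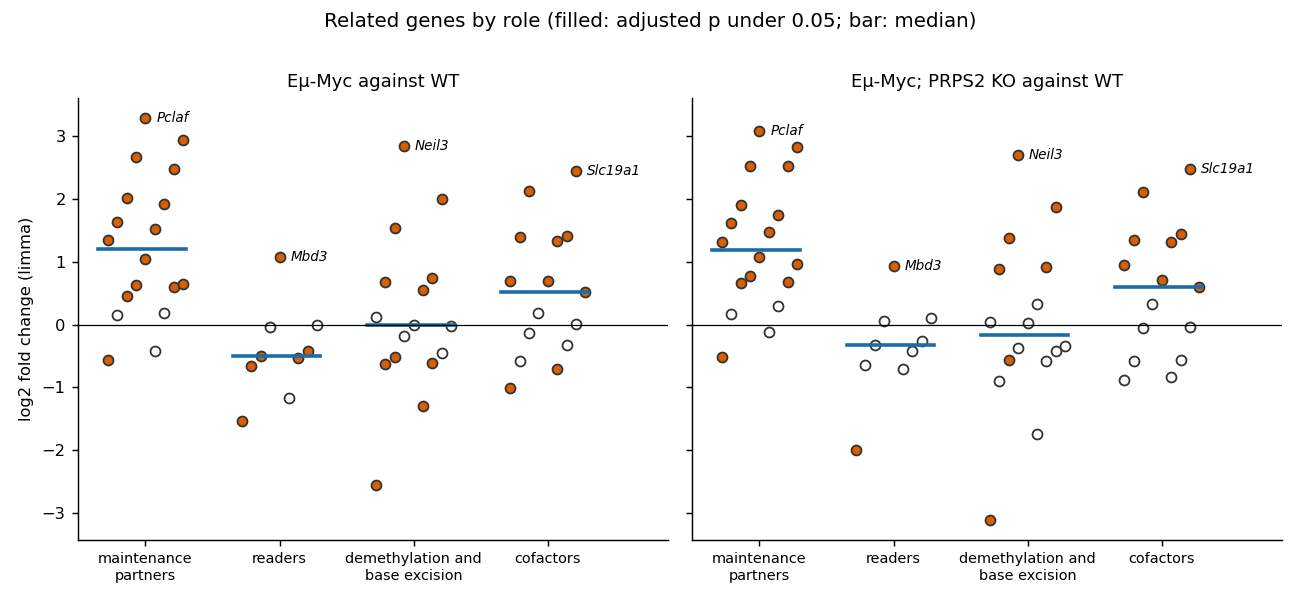
Log2 fold change by limma (y axis) of the 58 tested related genes by role (x axis) in Eμ-Myc against WT and in the knockout group against WT, 1 point per gene, filled below an adjusted p of 0.05, with a bar at the median and the highest gene of each role named. The partners of maintenance lie mostly above 0, with medians of 1.19 in both comparisons, and the readers mostly below it in Eμ-Myc.

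When the knockout group was set against Eμ-Myc, 0 of the 58 related genes were called by limma and 0 had an unadjusted p under 0.05, with a median log2 fold change of 0.02. Given again as a description of the known split and not as a test, 22 of the 58 passed the threshold without knockout libraries 1 and 2, beside 28.5% of all genes, 6 without libraries 3 and 4, beside 3.94%, and 41 with library weights, beside 59.5%. The counts moved with those over all genes. In the knockout group against WT 28 of 58 were called higher and 4 lower, beside 19.7% and 9.64% of all genes, with a median of 0.33 beside -0.02. Of the 18 maintenance partners 14 were called higher and 1 lower, of the 9 readers 1 and 1, of the 16 genes of demethylation and repair 5 and 2, and of the 15 cofactor genes 8 and 0. The highest were Pclaf at 3.08, Cdca7 at 2.83, Neil3 at 2.69, Suv39h2 at 2.53 and Lig1 at 2.52. Among the falls were Zbtb4 at -2.0, Hmces, a shield of abasic sites, at -0.56, and Zbtb24 at -0.52, with limma adjusted p of 0.0495, 0.0392 and 0.0405. Zbtb4 showed the split of the knockout group, at 35.9, 28.9, 5.11 and 5.44 in libraries 1 to 4. The total of 32 calls fell to 16, 13, 12 or 19 without WT library 1, 2, 3 or 4 and to 18 or 16 without knockout library 3 or 4. The shares of all genes called in those fits are not given here, so these falls are not read as particular to these genes.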

How the data were processed

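Per the labels' protocols, polyadenylated RNA of splenic B lymphocytes was sequenced from directional libraries. The authors deposited, for each of the 12 libraries, a mean coverage per gene: a signal relative to gene length, with 1 decimal; 91.6% of values above 0 were not whole. Per the submitters' processing notes the build was mm10, and DESeq and R 4.3.3 were named without a role; the aligner and the counting step are not given in the sources used here. The deposited coverage holds no counts, so no count model was run, no counting interval is given, and precision is that of the spread between libraries, labelled as biological replicates; whether each is 1 mouse is not stated.

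Libraries were grouped by the genotype label. They were scaled by trimmed means of log ratios without weights (at each end the outer 30% of ratios and 5% of means were dropped). Genes that reached a scaled coverage of 1 in 4 or more of a comparison's 8 libraries were tested with limma 3.58.1 (trended, robust empirical Bayes, two-sided) in R 4.3.3 on log2(scaled coverage + 0.5), with Benjamini-Hochberg adjustment over all genes and a threshold of 0.05. Such fold changes understate those of low genes. Ratios were compared by exact two-sided permutation over 70 arrangements and adjusted over 12 tests. Python 3.11.15 with pandas 2.3.3, numpy 2.4.6 and matplotlib 3.10.9 made the tables and figures.

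All 10 members are described. Of the 62 related genes, those named were, per comparison, the 5 with the largest called increase and the 5 with the largest called decrease; Zbtb24, Mbd3, Apex1, Slc19a1, Ahcy, Mat2a and Idh1 in Eμ-Myc against WT were named after their values were seen, and some genes that the rule names are not reported here. Members and lists were chosen with earlier results of these data known. The printed fits and ratios leave the replicate numbers out. Between the knockout group and Eμ-Myc, deviations of same-numbered libraries correlated across genes with r of 0.658, 0.192, 0.253 and 0.607, so a fit with the number as a block was an alternative; this pairing rests on the values alone, and knockout libraries 2 and 3 correlated best with Eμ-Myc libraries 1 and 4. The alternatives were 2 other scalings, no filter or one of 10 in every library, pseudocounts of 0.1 and 2, one fit of all 12 libraries, library weights, a replicate block, and leaving out libraries.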

Additional observations from a re-analysis of the deposited data

Results flagged for a closer look

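Within the Eμ-Myc group, library 2 was the lowest for each of the 10 genes, among them Dnmt1 at 541, Uhrf1 at 662 and Tdg at 55.5. In the fit with library weights against WT it had the lowest weight of its group, 0.325. It was flagged as standing apart from the other 3 for both de novo methyltransferases. Dnmt3a was lowest there, at a scaled coverage of 47.5, and the gap to the next library was 0.866 of the group's whole range. Dnmt3b was lowest there too, at 87.0, with a gap of 0.886 of the range. Both shares exceed Dixon's critical value at 95% for groups of 4. The test was run on 30 groups of 4 values, and chance gives such a gap in about 1 of 20 groups.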

How the results depend on the processing

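In Eμ-Myc against WT the number of the 9 genes called was 7 or 8 under all 17 alternatives, and 7 with the filter of 10 in every library, where Tet2 was not tested. The main fit called 55.2% of all genes. Apart from the replicate block, counts over all genes in the alternatives are not given here. The number of genes called is thus not read as a result about these genes. Dnmt3a alone turned, to -0.0088 with total coverage.

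Against Eμ-Myc, the knockout values of 7 genes turned with the libraries or the weights. Library weights gave 0.50 for Uhrf1, 0.46 for Hells and -0.40 for Tet2, and calls for 9 genes and 41 related genes. Without knockout libraries 1 and 2 the values were 0.65 for Uhrf1, 0.71 for Hells and -0.36 for Tet2, with 4 and 22 calls. Without libraries 3 and 4 they were -0.49 for Dnmt1, -0.064 for Uhrf2, -0.17 for Dnmt3b and -0.39 for Tdg, with 0 and 6 calls. Uhrf1 was 0.00038 with median of ratios and 0.0041 with total coverage. Leaving out 1 library gave -0.12 to 0.34 for Dnmt1, -0.26 to 0.28 for Uhrf1, -0.28 to 0.31 for Hells, -0.039 to 0.38 for Tet2 and -0.093 to 0.30 for Tdg. It gave -0.25 to 0.10 for the log2 ratio of Dnmt1 to Dnmt3a and -0.16 to 0.10 for Dnmt3a to Dnmt3b.

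Against WT in the knockout group the number of genes called was 4 to 9. Related calls numbered 52 with library weights and 12 to 42 with 1 library left out. The shares over all genes in those fits are not given here, so none of these counts is read as a result about the genes. Leaving out 1 library also gave 1.25 to 1.60 for the log2 ratio of Dnmt1 to Dnmt3a. It gave -1.07 to -0.81 for Dnmt3a to Dnmt3b and 0.40 to 0.79 for Tet3 to Tet2. In Eμ-Myc those ranges were -1.04 to -0.82 for Dnmt3a to Dnmt3b and 0.24 to 0.43 for Tet3 to Tet2, the last 0.35 with 0.5 added to both values. The causes were not tested.

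In the comparisons with WT the replicates share only a number (r of -0.423 to 0.398). There the replicate block gave 7183 calls over all genes for Eμ-Myc, beside 7016, and 1861 for the knockout group, beside 3719, with 8 and 6 of the 9 genes called. Against Eμ-Myc the block changed no call among the 9. With depth unknown, Tet1, near 1, cannot be read.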
